A study of Mus musculus with 13 samples.

Results

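The 9 genes described here encode enzymes of the mitochondrial tricarboxylic acid (TCA) cycle, namely Cs, Idh3a, Idh3b, Idh3g, Ogdh, Sucla2, Suclg1, Fh1 and Mdh2. They were chosen by name and not by their values, though with earlier results of these data known. All 9 were found by their Ensembl identifiers among the 42416 identifiers counted in each library. The libraries are RNA sequencing libraries of interscapular brown adipose tissue (iBAT), 1 per sample, 8 from iFAXLKO mice and 5 from WT mice. The iFAXLKO mice had loxP sites in both copies of Axl, a receptor tyrosine kinase, and 1 copy of Adipoq-CreERT2. This Cre is switched on by tamoxifen and was made from a bacterial artificial chromosome around Adipoq, so it is driven in adipocytes of every depot and not in the other cells of the tissue. The WT mice were Cre-negative and carried the same loxP-Axl-loxP alleles, so neither group had an unmodified Axl locus. Both groups received hydroxy-tamoxifen from 6 to 8 weeks of age and again every 3 weeks, and both were housed at room temperature and fed a high-fat diet (HFD). The mice were female, per the study's supplement, and the age at which the tissue was taken is not given in the sources used here. The labels do not say more of how the replicates were obtained than their number, so the p-values measure the spread between these samples.

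Axl is the gene that the Cre was meant to remove, and its counts did not fall in the libraries labelled iFAXLKO. The WT libraries held 28.5, 27, 26.3, 33.9 and 23.5 counts per M counts (CPM, scaled with TMM factors), in the order of the replicate numbers, and the libraries labelled iFAXLKO ran from 26.6 to 44 CPM with a median of 31.7 CPM. The log2 fold change was 0.25 (SE 0.13, edgeR adjusted p 0.699), so each direction below is given by the labels. These counts are of whole tissue, which also holds cells in which the Cre is not driven, and their part in the Axl counts was not tested. The study's western blot of AXL for the iFAXLKO line was made on the mature fraction of inguinal white fat, and not on iBAT. Adipoq, the gene around which the Cre transgene was built, was at 880 to 1303 CPM in the libraries labelled iFAXLKO. In the WT libraries it was at 622 to 867 CPM. The ranges did not overlap, which held for 0.434% of the 13360 genes tested. The log2 fold change of Adipoq was 0.66 (SE 0.11, edgeR adjusted p 0.0118), and 0.127% of the genes tested had an adjusted p under 0.05. Whether the transgene adds to the Adipoq counts was not tested, so these values are no check of the labels. Total counts were between 22.44 and 32.6 M per library, and the member with the fewest reads, Fh1, had between 14524 and 22400, so that counting error was small beside the spread between libraries. The tissue was checked against markers of brown adipocytes, and Ucp1, the uncoupling protein of brown fat, stood at 4037 to 7458 CPM in the libraries labelled iFAXLKO and at 5501 to 7907 CPM in the WT libraries. Skeletal muscle genes varied from library to library in both groups, with a summed level of 55.9 to 5681 CPM against 93.1 to 3928 CPM. Since the RNA came from whole tissue, fewer cells of a type and less RNA per cell cannot be told apart.

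The TCA cycle oxidises the acetyl group of acetyl-CoA in the mitochondrial matrix and passes the electrons to the respiratory chain as NADH and reduced flavin. Brown adipocytes are packed with mitochondria, and the heat made by uncoupled respiration draws on this supply of electrons. The enzymes act in a fixed order, from citrate synthase, which joins acetyl-CoA to oxaloacetate, to malate dehydrogenase, which makes oxaloacetate again. The NAD-linked isocitrate dehydrogenase, whose subunits are Idh3a, Idh3b and Idh3g, and the oxoglutarate dehydrogenase complex, which contains Ogdh, are the oxidative decarboxylation steps of the cycle.

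The promoter windows of Cs, Ogdh, Idh3b and Idh3g are shown because Cs varied with Ogdh between libraries, and Idh3b with Idh3g, as described further on. Idh3b and Idh3g varied about as closely with Fh1 and Mdh2, whose windows are not shown. RefSeq (GRCm38.p6) gave a window for 8 of the 9 genes, each from 250 bases before to 30 bases after the annotated start, and 6 short motifs were searched on both strands. In the windows of Idh3b and Idh3g, capitals mark the ETS-type GABPA core CCGGAAG or its reverse complement. In the window of Cs, capitals mark the CCAAT box and the GC box GGGCGG, again on either strand. The window of Ogdh had no GC box, and its capitals mark the CCAAT box on either strand. The CCAAT box in the window of Idh3b and the CRE TGACGTCA in that of Ogdh are left in lower case. For Ogdh the window is that of the first of several annotated starts.
Idh3b, chr2:130284422-130284701, minus strand: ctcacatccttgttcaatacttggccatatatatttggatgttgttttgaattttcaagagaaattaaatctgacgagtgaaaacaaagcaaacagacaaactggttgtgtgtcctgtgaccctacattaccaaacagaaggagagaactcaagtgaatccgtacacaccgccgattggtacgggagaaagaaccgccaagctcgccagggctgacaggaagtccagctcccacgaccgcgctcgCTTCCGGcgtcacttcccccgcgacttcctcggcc
Idh3g, chrX:73786868-73787147, minus strand: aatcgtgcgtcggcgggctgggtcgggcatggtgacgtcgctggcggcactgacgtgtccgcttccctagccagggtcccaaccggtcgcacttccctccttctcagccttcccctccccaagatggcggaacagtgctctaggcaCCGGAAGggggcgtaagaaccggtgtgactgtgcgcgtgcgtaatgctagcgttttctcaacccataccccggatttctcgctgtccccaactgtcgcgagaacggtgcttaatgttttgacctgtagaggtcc
Cs, chr10:128337477-128337756, plus strand: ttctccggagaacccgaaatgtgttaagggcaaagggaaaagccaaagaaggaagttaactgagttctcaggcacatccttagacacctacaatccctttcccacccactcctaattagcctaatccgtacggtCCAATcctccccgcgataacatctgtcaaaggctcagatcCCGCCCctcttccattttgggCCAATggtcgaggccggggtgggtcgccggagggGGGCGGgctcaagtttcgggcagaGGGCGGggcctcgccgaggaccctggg
Ogdh, chr11:6291347-6291626, plus strand: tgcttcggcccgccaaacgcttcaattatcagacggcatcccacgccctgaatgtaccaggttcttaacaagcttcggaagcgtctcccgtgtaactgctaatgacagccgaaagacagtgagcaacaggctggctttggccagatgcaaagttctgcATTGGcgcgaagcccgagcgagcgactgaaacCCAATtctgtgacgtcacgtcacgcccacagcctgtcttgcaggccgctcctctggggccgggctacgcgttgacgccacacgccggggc

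The GABPA core was present in 2 of the 8 windows, those of Idh3b and Idh3g, and in 8.45% of all 32851 windows of the same length. The CCAAT box was found in 4 windows (Cs, Idh3b, Ogdh and Fh1) against 36.1% of all windows, and the GC box in 4 (Cs, Sucla2, Fh1 and Mdh2) against 34.7%. The CRE TGACGTCA, which reads the same on both strands, was in the windows of Ogdh and Mdh2 and in 1.74% of all windows. The NRF1 motif was in that of Sucla2 and in 4.41% of all windows. The nuclear receptor element AAGGTCA was in 0 of the 8 windows and in 4.46% of all. No match overlapped a match to another motif. These are matches of letters and not sites shown to be bound.

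None of the 9 genes passed the test between the groups. With edgeR, 0 of 9 had an adjusted p under 0.05, where 0.127% of the 13360 genes tested did (0.0299% lower and 0.0973% higher in the libraries labelled iFAXLKO), and DESeq2 and limma-voom also called 0. All 9 passed the filter on low counts, and all 9 had a lower mean in the libraries labelled iFAXLKO, by between 0.06 and 0.21 on the log2 scale, whereas 53.6% of all genes tested had a log2 fold change below 0. The median of the 9 was -0.15 against -0.01 over all genes tested. For 1 of the 9, Ogdh, the unadjusted p was under 0.05, where 3.54% of all genes were lower at that limit. The CPM ranges of the groups overlapped for each of the 9, and they did not overlap for 0.434% of all genes tested. Without WT replicate 2 the median was -0.06, with 8 of 9 below 0, and within the lower and the upper range of the library numbers in the labels, which hold 4 against 2 and 4 against 3 libraries, it was -0.25 and -0.07. It was -0.06 with limma-voom and sample quality weights, and -0.09 with library sizes that left out the most abundant and the mitochondrial genes, a setting that moved the median of all genes to 0.04.

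**Figure D1:**
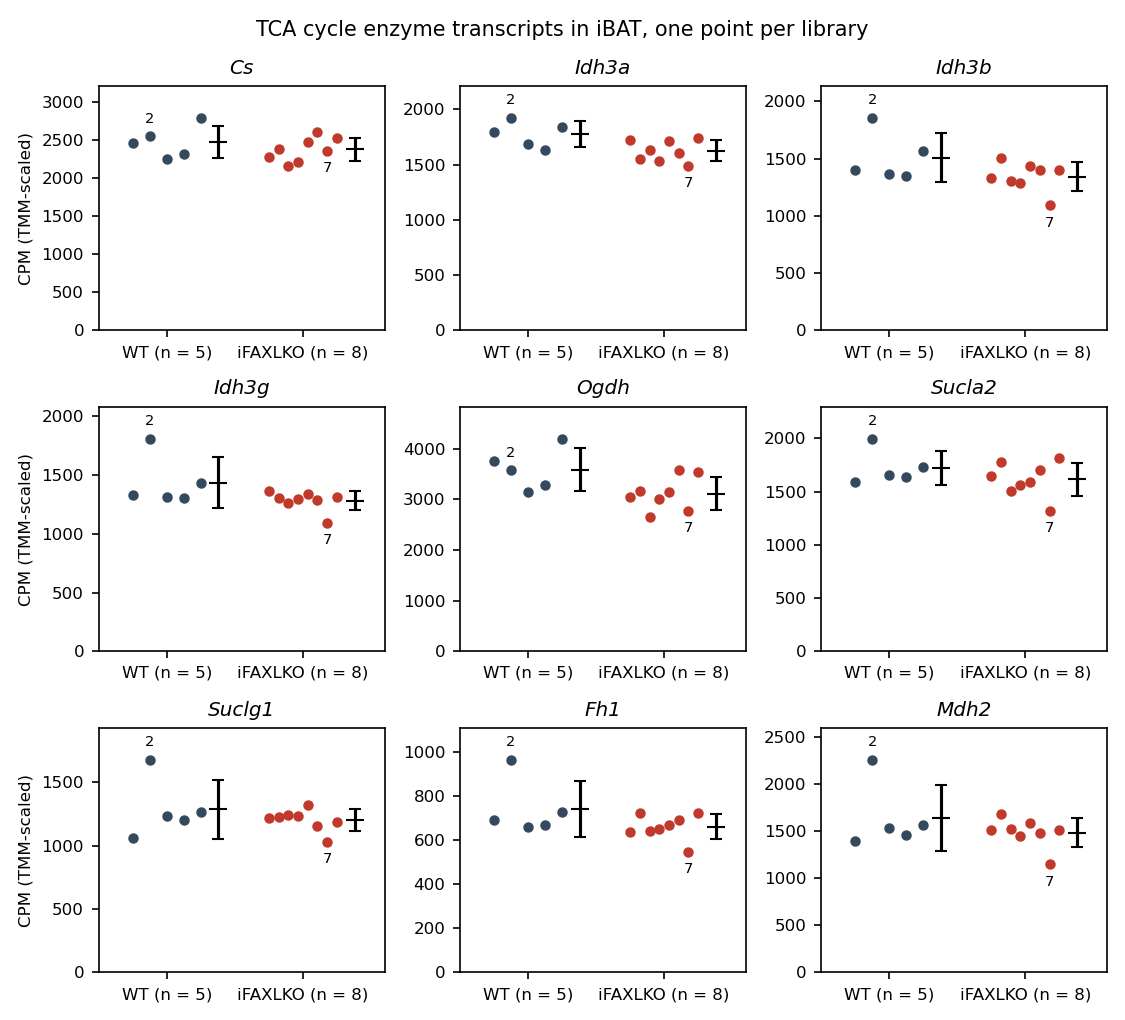
Level of each TCA cycle gene in CPM (vertical axes, from 0) in the 5 WT libraries (dark points) and the 8 libraries labelled iFAXLKO (red points), in the order of the replicate numbers, with the mean and SD of each group as a bar. The points numbered 2 and 7 are WT replicate 2 and iFAXLKO replicate 7, which are the highest and the lowest of the 13 libraries for 7 of the 9 genes, and the ranges of the groups overlap in every panel.

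Citrate synthase, encoded by Cs (ENSMUSG00000005683, chromosome 10, 128337734 to 128362479, plus strand, GRCm38), catalyses the entry of acetyl-CoA and is widely used as a measure of mitochondrial content. Cs stood at 2455, 2546, 2254, 2315 and 2788 CPM in the WT libraries in the order of the replicates, and at 2154 to 2605 CPM with a median of 2371 CPM in the libraries labelled iFAXLKO. The ranges of the groups largely coincided, with WT replicate 5 on top and iFAXLKO replicate 3 at the bottom. The mean was 2374 ± 155 CPM (SD, n = 8) and that of WT 2472 ± 211 CPM (SD, n = 5), which gave a log2 fold change of -0.06 (SE 0.08, 95% interval -0.22 to 0.11) with an edgeR adjusted p of 0.928. This was the smallest difference of the 9 and its sign was not stable, since it was -0.01 without WT replicate 5 and 0.02 within the upper range of library numbers.

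The catalytic subunit of NAD-linked isocitrate dehydrogenase, Idh3a (ENSMUSG00000032279, chromosome 9, 54586334 to 54604661, plus strand), had 1795, 1924, 1686, 1635 and 1844 CPM in the WT libraries. In the libraries labelled iFAXLKO it had 1490 to 1746 CPM, with a median of 1620 CPM. All 8 of these lay below the WT mean, but 2 WT libraries, replicates 3 and 4, fell inside their range. The log2 fold change was -0.13 (SE 0.07, edgeR p 0.0987, adjusted p 0.734). The exact permutation p for this gene alone, not adjusted over the 9 genes, was 0.0311.

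The other subunits of this enzyme, which have regulatory roles, are encoded by Idh3b (ENSMUSG00000027406, chromosome 2, 130279309 to 130284547, minus strand) and Idh3g (ENSMUSG00000002010, chromosome X, 73778963 to 73786897, minus strand). Idh3b stood at 1405, 1856, 1363, 1349 and 1570 CPM in the WT libraries and at 1092 to 1503 CPM, median 1363 CPM, in the libraries labelled iFAXLKO. Idh3g stood at 1329, 1807, 1315, 1301 and 1428 CPM in the WT libraries and at 1092 to 1360 CPM, median 1297 CPM, in the others. WT replicate 2 stood well above the rest for both genes, and iFAXLKO replicate 7 below. Each had a log2 fold change of -0.17, with an SE of 0.10 for Idh3b and 0.09 for Idh3g and edgeR adjusted p-values of 0.742 and 0.724. The exact permutation p, not adjusted over the 9 genes, was 0.113 for Idh3b and 0.0357 for Idh3g. The unadjusted edgeR p was 0.107 for Idh3b and 0.0891 for Idh3g. Without WT replicate 2 the values shrank to -0.08 and -0.07. Idh3b overlaps Nop56 on the opposite strand, which had a mean of 15 CPM, and as the strand setting of the counting is not given in the sources used here, reads in the overlap cannot be assigned with certainty.

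Ogdh (ENSMUSG00000020456, chromosome 11, 6291633 to 6356642, plus strand) encodes the E1 component of the oxoglutarate dehydrogenase complex, which turns 2-oxoglutarate into succinyl-CoA. Its levels were 3770, 3574, 3139, 3281 and 4197 CPM in the WT libraries and 2653 to 3581 CPM, median 3097 CPM, in the libraries labelled iFAXLKO. All 8 of the latter lay below the WT mean, while WT replicates 2, 3 and 4 fell within their range. The mean was 3114 ± 328 CPM (SD, n = 8), or 86.7% of the WT mean of 3592 ± 418 CPM (SD, n = 5). This was the largest difference of the 9 genes, a log2 fold change of -0.21 (SE 0.10, 95% interval -0.41 to -0.0012), with an edgeR p of 0.0488 that became 0.672 after adjustment over all genes and an exact permutation p of 0.0435. Leaving out each library in turn gave values from -0.24 to -0.14, and the upper range of library numbers alone gave -0.12.

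Succinyl-CoA ligase yields the nucleoside triphosphate that the cycle makes directly. Suclg1 (ENSMUSG00000052738, chromosome 6, 73248382 to 73276911, plus strand) encodes its alpha subunit, and Sucla2 (ENSMUSG00000022110, chromosome 14, 73525319 to 73596142, plus strand) the beta subunit of the ATP-forming enzyme. Sucla2 stood at 1593, 1994, 1651, 1633 and 1727 CPM in the WT libraries and at 1321 to 1811 CPM, median 1620 CPM, in the libraries labelled iFAXLKO. Suclg1 stood at 1059, 1675, 1230, 1204 and 1261 CPM in the WT libraries and at 1028 to 1320 CPM, median 1219 CPM, in the others. Apart from WT replicate 2, the WT levels of Suclg1 all lay within the range of the libraries labelled iFAXLKO. The log2 fold changes were -0.09 for Sucla2 (SE 0.09, edgeR adjusted p 0.882, exact permutation p 0.281) and -0.10 for Suclg1 (SE 0.10, edgeR adjusted p 0.888, exact permutation p 0.424). Without WT replicate 2 they were -0.03 and 0.01, and without iFAXLKO replicate 7 that of Sucla2 was -0.05. Without WT replicate 1 that of Suclg1 was -0.16.

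Fh1 (ENSMUSG00000026526, chromosome 1, 175600374 to 175625635, minus strand) encodes fumarase, which hydrates fumarate to malate. It had 693, 966, 660, 671 and 728 CPM in the WT libraries and 547 to 726 CPM, median 661 CPM, in the libraries labelled iFAXLKO. All 8 lay below the WT mean, which WT replicate 2 pulled up, as the other WT libraries ran from 660 to 728 CPM. The log2 fold change was -0.17 (SE 0.10, edgeR adjusted p 0.748, exact permutation p 0.133), and -0.06 without WT replicate 2.

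Mdh2 (ENSMUSG00000019179, chromosome 5, 135778480 to 135790398, plus strand) encodes the mitochondrial malate dehydrogenase, which closes the cycle. It varied most between libraries, with 1393, 2256, 1537, 1457 and 1568 CPM in the WT libraries and 1148 to 1681 CPM, median 1514 CPM, in the libraries labelled iFAXLKO. The highest level of the 13 was 1.97 times the lowest, against 1.29 times for Cs and Idh3a. The log2 fold change was -0.15 (SE 0.12, edgeR adjusted p 0.854, exact permutation p 0.386) and 0.00 without WT replicate 2.

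**Figure D2:**
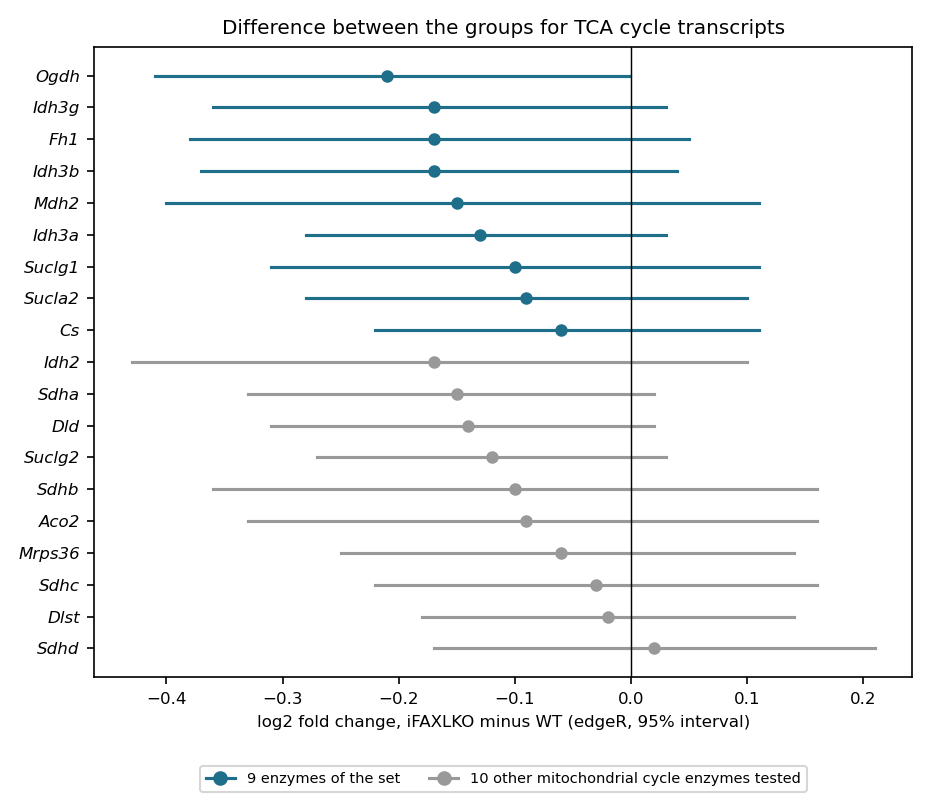
The log2 fold change, libraries labelled iFAXLKO minus WT, of the 9 genes (blue) and of 10 other mitochondrial cycle enzymes tested (grey), from edgeR, with lines for the 95% interval. The points of the 9 genes lie between -0.21 for Ogdh and -0.06 for Cs, and every interval except that of Ogdh reaches past 0.

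Per kilobase of exon, the transcripts were present at levels within a factor of 2.96 of each other. Averaged over the 13 libraries, Ogdh was highest at 605 ± 77.7 CPM per kb (SD, n = 13), followed by Idh3g at 496 ± 58.8 CPM per kb. Mdh2, Cs, Sucla2 and Idh3b came next with means of 434, 417, 415 and 411 CPM per kb. These 4 did not separate from one another, since Mdh2 was above Cs in 8 of 13 libraries, Cs above Sucla2 in 5 and Sucla2 above Idh3b in 8. Idh3g was above Mdh2, and Idh3b above Idh3a, in 13 of 13 libraries. Idh3a (332 CPM per kb), Suclg1 (267) and Fh1 (204 ± 28 CPM per kb) were lower, each above the next in 13 of 13 libraries. Ogdh exceeded Idh3g in 12 of 13. The lengths are those of the union of annotated exons, so a gene with long exons that are little used in iBAT is given too low a level by this scale.

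**Figure D3:**
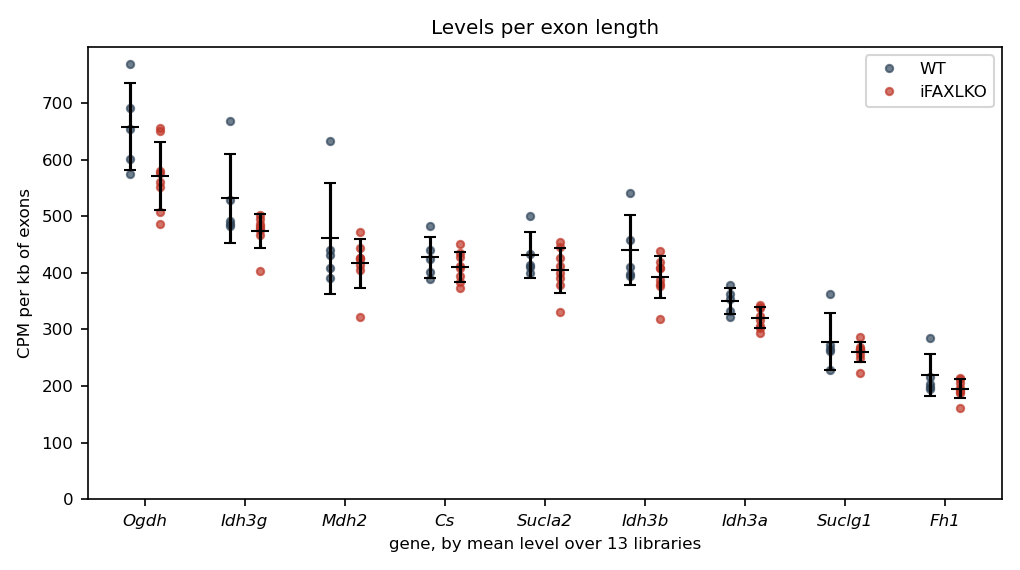
Level of each gene in CPM per kb of exon (axis from 0) in every library, WT dark and iFAXLKO red, with the mean and SD of each group, ordered by the mean over the 13 libraries. Ogdh is highest and Fh1 lowest, and the points of Mdh2, Cs, Sucla2 and Idh3b cover much the same range.

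The genes varied together to different degrees. With the group means subtracted, the Pearson r between the log2 CPM of the 36 pairs ran from 0.02 to 0.95 over the 13 libraries, with a median of 0.65. Idh3b, Idh3g, Sucla2, Suclg1, Fh1 and Mdh2, a subset picked after their values were seen, had r between 0.67 and 0.95 in their 15 pairs, and 0.47 to 0.93 without WT replicate 2. Cs and Ogdh had r of 0.89 with each other, and 0.90 without that library. Between Cs or Ogdh and the subset of 6, r was 0.02 to 0.56, and without that library it was -0.03 to 0.72, which overlaps the range within the subset. How far the genes fall into separate blocks therefore leans on WT replicate 2. Idh3a lay between, with r of 0.47 to Cs, 0.51 to Ogdh and 0.75 to Idh3g. Idh3b and Idh3g, the other genes whose promoters are printed above, had r of 0.91, and 0.86 without WT replicate 2. Idh3b had r of 0.95 with Fh1, and Idh3g 0.94 with Mdh2, which became 0.93 and 0.84 without that library. The windows of Fh1 and Mdh2 held no GABPA core. All pairs share the same libraries, their depth and their RNA quality.

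**Figure D4:**
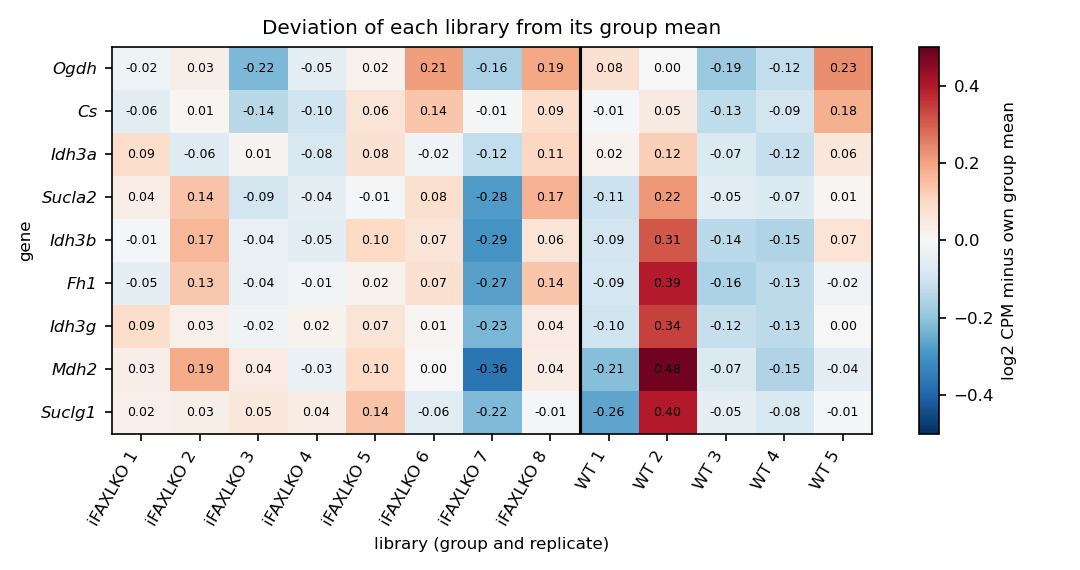
Log2 CPM of each gene (rows) in each library (columns) minus the mean of its group, as colour. WT replicate 2 is above its group mean for 9 of 9 genes, by 0.48 for Mdh2 and 0.0003 for Ogdh, and iFAXLKO replicate 7 is below for all 9.

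A pair of libraries set the ends of this spread. WT replicate 2 had the highest level of the 13 libraries for all genes but Cs and Ogdh, and iFAXLKO replicate 7 had the lowest for the same 7, while for Cs and Ogdh the ends were WT replicate 5 and iFAXLKO replicate 3. Compared with the other WT libraries, WT replicate 2 was higher by 0.60 on the log2 scale for Mdh2, 0.50 for Suclg1, 0.49 for Fh1, 0.43 for Idh3g and 0.39 for Idh3b, but by 0.06 for Cs and 0.00 for Ogdh. In iFAXLKO replicate 7 the deviation from its group was -0.42 for Mdh2, -0.34 for Idh3b, -0.14 for Idh3a and -0.01 for Cs, while Ogdh was at -0.18, so that Ogdh stood low in this library and Cs did not.

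Other values moved with these libraries. WT replicate 2 had the highest summed level of the 10 brown adipocyte markers, 26980 CPM, where the other WT libraries had 17957 to 19623 CPM. The lowest sum, 16460 CPM, was that of iFAXLKO replicate 7, which also had the highest sum of 7 macrophage markers, 175 CPM, and the highest level of Axl, 44 CPM. The 10 markers include Adipoq, Plin1 and Fabp4, which are not particular to brown adipocytes, and Fabp4 alone was at 6633 to 10714 CPM in the WT libraries. Genes of WT replicate 2 also deviated by exon length. From the fifth of the genes tested with the shortest exons to that with the longest, the median log2 deviation from the other WT libraries was 0.44, 0.20, 0.01, -0.16 and -0.39, where iFAXLKO replicate 7 had -0.02 to 0.03 from its own group. Cs and Ogdh belong to the fourth of these classes, Idh3a, Sucla2 and Suclg1 to the third and the other 4 to the second, and each of the 9 was above the median of its class in WT replicate 2. In an alternative chosen after seeing the data, the trend over exon length was removed from every library. The median log2 fold change of the 9 genes was then -0.14 and 0 were called. An unadjusted edgeR p under 0.05 was reached by 2 of the 9, against 1 in the main fit. The share of all genes at that limit was not counted for this setting. The trend was fitted to deviations from each group's own mean, so its removal could hardly shift the difference between the groups. This setting therefore does not show how far the trend in WT replicate 2 bears on that difference.

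Ratios of transcripts within a library do not depend on how libraries are scaled, and 8 were compared on the per-kilobase scale. A trend over exon length, as in WT replicate 2, can still move a ratio of genes that differ in length. The size of each ratio also rests on the annotated exon lengths. Within isocitrate dehydrogenase, Idh3b to Idh3a was 1.23 ± 0.106 (SD, n = 8) against 1.25 ± 0.105 (SD, n = 5), Idh3g to Idh3a 1.48 against 1.51 and Idh3g to Idh3b 1.21 in both groups. The ATP-forming subunit Sucla2 exceeded Suclg2, the subunit of the GTP-forming enzyme, by 14.3 ± 0.838 (SD, n = 8) against 14.1 ± 1.12 times (SD, n = 5). Sucla2 to Suclg1 was 1.56 against 1.57, Mdh2 to Cs 1.02 against 1.08 and Mdh2 to its cytosolic counterpart Mdh1 1.61 against 1.74. For these 7 ratios the exact permutation p, adjusted over the 8, lay between 0.622 and 0.922.

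The ratio that differed most was that of Ogdh to Dlst, which encodes the E2 core of the same complex. It was 4.67, 3.92, 3.74, 3.69 and 4.54 in the WT libraries and 3.25 to 3.99 in the libraries labelled iFAXLKO, all 8 of which lay below the WT mean although the ranges overlapped. The mean was 3.6 ± 0.27 (SD, n = 8) against 4.11 ± 0.46 (SD, n = 5), a log2 difference of -0.19 with an exact permutation p of 0.0295, or 0.236 after adjustment over the 8 ratios. Dlst itself had a log2 fold change of -0.02 (SE 0.08, edgeR adjusted p 0.985).

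**Figure D5:**
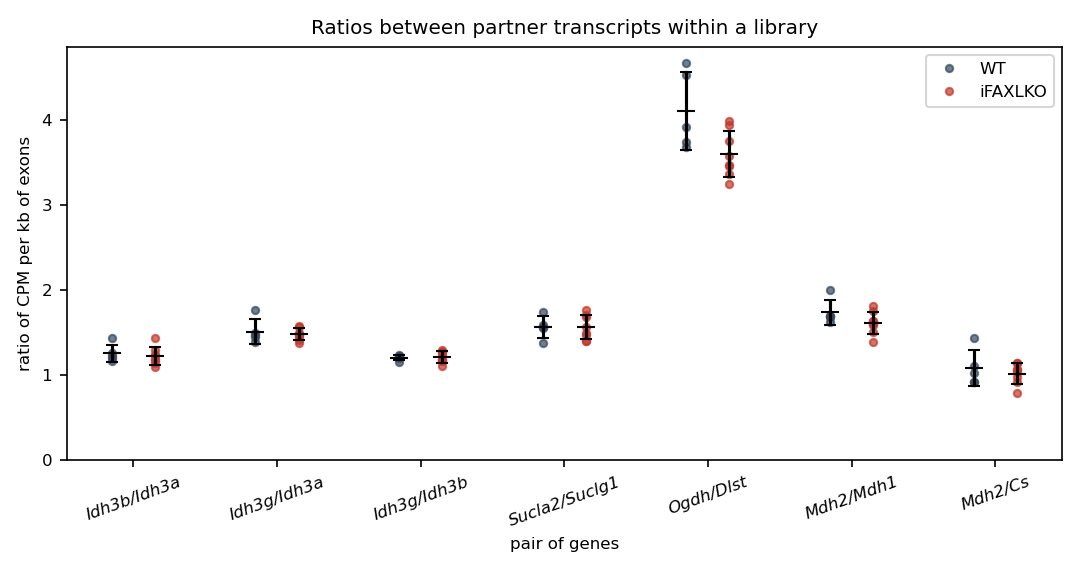
Ratio of the per-kilobase levels of paired transcripts (vertical axis from 0) in every library for 7 of the 8 pairs, WT dark and iFAXLKO red, with the mean and SD of each group. The ratio of Sucla2 to Suclg2, near 14.3, is left out for its size, the ranges of the groups overlap for all 7, and all 8 red points of Ogdh to Dlst lie below the WT mean of 4.11.

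The rest of the pathway was read in the same fit. Of 11 other mitochondrial cycle enzymes, 10 could be tested (Ogdhl was under the filter), 0 passed the adjusted limit or an unadjusted p under 0.05, and 9 had a log2 fold change below 0, with a median of -0.09. Sdha, the flavoprotein subunit of succinate dehydrogenase, had -0.15 (SE 0.08, edgeR adjusted p 0.717). Dld, the E3 component shared by the oxoacid dehydrogenase complexes, had -0.14 (SE 0.08, adjusted p 0.717), and Suclg2 -0.12 (SE 0.07, adjusted p 0.748). Of the 4 cytosolic counterparts 0 were called. Acly, which splits citrate for lipid synthesis, varied widely within the groups, at 1104 ± 435 CPM (SD, n = 8) and, in WT, 1534 ± 1179 CPM (SD, n = 5), and had a log2 fold change of -0.47 (SE 0.52, edgeR adjusted p 0.904), while Aco1 had 0.11, Idh1 -0.06 and Mdh1 -0.05.

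Of 13 genes for the entry of pyruvate, 0 were called and 11 had a value below 0, with a median of -0.10. An unadjusted p under 0.05 was reached by 2 of them, where 7.38% of all genes tested reached it. Pdp1, a phosphatase that activates pyruvate dehydrogenase, had a log2 fold change of 0.26 (SE 0.10, edgeR p 0.0237, adjusted p 0.593). Pdk2, a kinase that inactivates it, had -0.15 (SE 0.07, edgeR p 0.0473, adjusted p 0.663), and Pdhx, which binds E3 to the complex, had -0.18 (SE 0.10, edgeR adjusted p 0.717). Among 12 enzymes that feed or drain the cycle 0 were called. Abat, of the GABA shunt, had 0.30, the cytosolic aspartate aminotransferase Got1 -0.34 and malic enzyme Me1 -0.22, with edgeR adjusted p-values of 0.77, 0.806 and 0.918.

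Of 6 carriers of cycle intermediates, 5 were tested (Slc25a13 was under the filter) and 0 were called. The dicarboxylate carrier Slc25a10 was low, at 17.1 ± 5.37 CPM (SD, n = 8) in the libraries labelled iFAXLKO, and had a WT mean of 11.3 ± 4.85 CPM (SD, n = 5), with a log2 fold change of 0.60 (SE 0.28, edgeR adjusted p 0.68). The citrate carrier Slc25a1 had -0.34 and the glutamate carrier Slc25a22 -0.08, with adjusted p-values of 0.855 and 0.881. Of 10 transcription regulators of mitochondrial genes 0 were called, with a median of -0.06. Nrf1 had 0.13, Ppara -0.42 and Gabpa, the factor named for the GABPA core above, -0.13, with edgeR adjusted p-values of 0.821, 0.824 and 0.84.

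By the likeness of their pattern over the 13 libraries, with group means subtracted, the genes outside the 9 with the highest r to the mean of the 9 were Fahd2a (0.97), Atp5a1, the alpha subunit of ATP synthase (0.96), Uqcc1, an assembly factor of respiratory complex III (0.96), Mrpl16, a mitochondrial ribosomal protein (0.96), and Uqcrc2, a core subunit of complex III (0.95). Without WT replicate 2 their r lay between 0.91 and 0.94. The lowest r were those of Jag1, a Notch ligand (-0.97), and Flna, an actin-binding protein (-0.94), with -0.95 and -0.84 without that library. None of these 7 genes was called between the groups.

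Markers of other cell types were summed beside these small differences, and 0 of the fibroblast, macrophage, endothelial, erythroid and white adipocyte markers passed the adjusted limit. All 7 fibroblast markers had a log2 fold change above 0, with a median of 0.66, and 7 had an unadjusted p under 0.05, where 3.84% of all genes were higher at that limit, but 0 passed the adjusted limit. Their summed level was 515 to 1159 CPM in the libraries labelled iFAXLKO and 378 to 678 CPM in the WT libraries. The 7 macrophage markers also all lay above 0, with a median of 0.39, 7 at an unadjusted p under 0.05 and 0 adjusted, and sums of 98.4 to 175 CPM against 80.7 to 116 CPM. For 6 endothelial markers the median was 0.18, with sums of 689 to 1084 against 585 to 846 CPM, and for 5 erythroid markers 0.34, with sums of 386 to 686 against 285 to 711 CPM. For 6 white adipocyte markers, of which Hoxc9 was under the filter and at 0 counts in some libraries, the median was 0.04 and the sums were 33.5 to 104 against 22.2 to 106 CPM.

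For the 12 skeletal muscle markers, of a tissue that also expresses the cycle enzymes, the median log2 fold change was -0.25 and 0 were called. Acta1 ranged from 1282 CPM in iFAXLKO replicate 5 to 0.439 CPM in iFAXLKO replicate 8. Ckm ranged from 535 to 0.279 CPM between the same libraries, and each of these libraries was above its group mean for 8 of the 9 genes. With a skeletal muscle score as a covariate the median of the 9 genes was -0.14. Of the 10 brown adipocyte markers 9 had a value below 0, with a median of -0.11, and the 1 called was Adipoq, at 0.66. Elovl3 had the largest change of the 10, -0.69 (SE 0.21, edgeR p 0.00571, adjusted p 0.474). It was the only 1 of them lower at an unadjusted p under 0.05, where 3.54% of all genes were lower at that limit. The part of the fibroblast and macrophage RNA in the lower means of the cycle enzymes was not tested.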

How the data were processed

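iBAT was analysed in 13 libraries, 8 labelled iFAXLKO and 5 WT. The deposited values are raw read counts per Ensembl gene, made by the authors on GRCm38. The processing notes name bcl2fastq 2.20, fastp 0.20.0, STAR 2.7.4a and DESeq2, whereas the methods of the study name Trim Galore and hisat2. The labels give polyadenylated RNA and the methods depletion of ribosomal RNA. How reads were counted, and with which strand setting, is not given in the sources used here.

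The 13360 genes above 1 CPM in 5 or more libraries were scaled with TMM factors and tested with the robust quasi-likelihood test of edgeR 4.0.16 (R 4.3.3), 2-sided, with Benjamini-Hochberg adjustment over all genes and a limit of 0.05. Log2 CPM used a prior count of 2. Exact permutation tests were 2-sided over all 1287 splits (smallest possible p 0.000777). The edgeR fit was tried on simulated counts, and the permutation test on fixed values with a known answer. Libraries of a group differed by far more than sampling noise (chi-square per degree of freedom at least 15.26 over 38 pairs). The labels do not say that the replicate numbers pair the samples, and the main fit did not use them as a block.

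GENCODE M21 gave positions (counted from 1), strands and exon lengths. Alternatives included DESeq2 1.42.0, limma-voom (limma 3.58.1), other scalings and filters and each library left out. The genes, lists and motifs were chosen with earlier results of these data known. Named genes were Axl, the 9 enzymes and their partners in ratios, of each other pathway list the 3 with the smallest p, the 5 most and 2 least alike in pattern, and Ucp1, Acta1 and Ckm. Hoxc9, Nop56, Adipoq, Plin1, Fabp4, Elovl3, Ogdhl and Slc25a13 were named outside this rule.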

Additional observations from a re-analysis of the deposited data

Results flagged for a closer look

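In groups of 4 to 10 libraries, the highest and the lowest value was set against its nearest neighbour by Dixon's test for 34 groups of gene levels and ratios. A library stood apart in 7 of them, and chance alone gives about 1 in 20. The groups share libraries and genes, so these 7 are not independent of each other.

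WT replicate 2 stood above the other WT libraries for Idh3g (1807 CPM, the next 1428), for Fh1 (966 CPM, the next 728) and for Mdh2 (2256 CPM, the next 1568). It also had the highest ratio of Idh3g to Idh3a, 1.76 where the next WT library had 1.49. iFAXLKO replicate 7 stood below its group for Idh3g (1092 CPM, the next 1262) and for Mdh2 (1148 CPM, the next 1443). WT replicate 3 had a ratio of Mdh2 to Mdh1 of 2, with the next WT library at 1.69, and this library was not at an end of the range for Mdh2 itself. All levels are those of the per-library CPM used in the comparisons, and without WT replicate 2 the log2 fold changes of Idh3g, Fh1 and Mdh2 were -0.07, -0.06 and 0.00.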

How the results depend on the processing

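In all 26 alternatives 0 of the 9 genes were called. Over all genes, 17 were called, with 14 to 19 when 1 library was left out, 66 with DESeq2 (all 17 among them), 7 with the replicate block, and 4 and 10 within the lower and the upper range of library numbers. The sign of the log2 fold change turned for Cs within the upper range (0.02) and for Suclg1 without WT replicate 2 (0.01, over a range of -0.16 to 0.01 when 1 library was left out). When 1 library was left out, the log2 difference between the groups crossed 0 for the ratios Idh3b to Idh3a (-0.07 to 0.01), Idh3g to Idh3a (-0.06 to 0.03), Idh3g to Idh3b (-0.01 to 0.03), Sucla2 to Suclg1 (-0.05 to 0.03) and Mdh2 to Cs (-0.13 to 0.03). The cause was not tested.

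The median of the 9 genes was -0.19 to -0.06 with 1 library left out and -0.25 to -0.06 in the other alternatives. With the replicate number as a block it was -0.12 and 0 were called. Samples of the same number had correlations of 0.39, 0.42, 0.19, 0.18 and -0.61 between their deviations. WT replicates 2 and 3 correlated best with the iFAXLKO sample of their own number, and WT replicates 1, 4 and 5 did not. Whether the numbers pair the samples was not tested, and the labels do not say so. Depth was not a limit for these genes, and the 95% intervals of 8 of the 9 took in 0. Whether protein, enzyme activity or flux through the cycle differed was not measured in these libraries.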
